A study of Homo sapiens with 2 samples.

Results

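The BCL2 family genes described here encode regulators of mitochondrial apoptosis. The set was chosen by gene name, with earlier results of these data known. It holds 10 genes, BCL2, BCL2L1, MCL1, BCL2A1, BAK1, BID, BIK, BMF, BAD and BCL2L11. All 10 were among the 14812 named genes measured, and other family genes such as BAX, BBC3 and PMAIP1 lie outside the set. RNA came from MCF-10A, a human breast epithelial cell line that does not form tumours. The tested cells stably expressed a fusion of EGFP with the GTPase-activating protein ARHGAP4, and their controls stably expressed EGFP from the vector alone, so both lines carry EGFP and neither is unmodified. The labels do not say whether the lines are clones or pools. There was 1 array for each line, so no gene has an error between cultures, no test was possible, and every difference below is one between these 2 arrays.

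Mitochondrial apoptosis turns on whether BAX or BAK1 forms pores in the outer mitochondrial membrane and releases cytochrome c, which lets APAF1 switch on caspases. The anti-apoptotic members BCL2, BCL-XL (encoded by BCL2L1), MCL1 and BCL2A1 hold BAX, BAK1 and the BH3-only proteins in check. The BH3-only proteins carry signals to this step: BIM (encoded by BCL2L11) and BMF are known from the death of mammary epithelial cells, MCF-10A among them, that lose contact with matrix, a form of apoptosis called anoikis, BAD answers to loss of survival signals, BID links death receptors to mitochondria, and BIK acts at the endoplasmic reticulum.

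Of the 10 genes, only BCL2 differed between the lines by 0.5 or more on the log2 scale, and it was lower in the EGFP-ARHGAP4 array. That is 1 of 10, where 10.7% of all genes, and 15.0% of genes past the level filter described below, differed as much. BCL2L1 was the highest of the set and MCL1 the next lowest after BCL2, both at about 0.3. The pore-former BAK1 and the BH3-only genes differed by no more than 0.14 either way. Outside the 10, 14 other genes of the family or of its BNIP relatives were measured. Of these 14, 2 were higher by 0.5 or more in the EGFP-ARHGAP4 array, the pore-former BAX and the mitophagy receptor gene BNIP3L, and 0 were lower. In the other apoptosis lists, APAF1, BIRC2, E2F1, GATA3 and REL were lower by 0.5 or more as deposited, and BTRC, RNF144B and FOXO1 higher.

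The sequences just upstream of 4 genes are shown, chosen after the values were seen. Of these genes, BCL2 is the guardian lower by 0.5 or more, and BCL2L1 a guardian that was higher but short of 0.5. BCL2A1 is a guardian with low values in both arrays, and BAX the pore-former that was higher. Each sequence is the 250 bases before an annotated start in RefSeq, build GRCh38.p14, read 5′ to 3′ along the gene's strand, with CpG dinucleotides in capitals. They are BCL2 at chr18:63319770-63320019 on the minus strand, BCL2L1 at chr20:31723964-31724213 on the minus strand (the outer of its 2 annotated starts in the table), BCL2A1 at chr15:79971197-79971446 on the minus strand and BAX at chr19:48954625-48954874 on the plus strand.
BCL2: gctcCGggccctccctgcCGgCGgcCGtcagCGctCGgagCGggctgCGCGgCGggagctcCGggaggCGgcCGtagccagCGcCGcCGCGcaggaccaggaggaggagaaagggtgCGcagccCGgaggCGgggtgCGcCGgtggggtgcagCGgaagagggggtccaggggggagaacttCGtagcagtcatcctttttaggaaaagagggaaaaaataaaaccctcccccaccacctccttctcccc
BCL2L1: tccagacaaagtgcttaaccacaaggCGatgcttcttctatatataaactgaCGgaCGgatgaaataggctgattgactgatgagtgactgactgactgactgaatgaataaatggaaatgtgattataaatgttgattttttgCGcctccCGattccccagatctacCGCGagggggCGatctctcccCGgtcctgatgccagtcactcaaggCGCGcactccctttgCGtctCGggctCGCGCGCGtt
BCL2A1: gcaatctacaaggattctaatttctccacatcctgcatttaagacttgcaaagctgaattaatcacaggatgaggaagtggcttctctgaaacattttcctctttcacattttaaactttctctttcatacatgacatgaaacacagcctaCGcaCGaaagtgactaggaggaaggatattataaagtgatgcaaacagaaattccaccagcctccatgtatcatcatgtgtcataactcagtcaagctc
BAX: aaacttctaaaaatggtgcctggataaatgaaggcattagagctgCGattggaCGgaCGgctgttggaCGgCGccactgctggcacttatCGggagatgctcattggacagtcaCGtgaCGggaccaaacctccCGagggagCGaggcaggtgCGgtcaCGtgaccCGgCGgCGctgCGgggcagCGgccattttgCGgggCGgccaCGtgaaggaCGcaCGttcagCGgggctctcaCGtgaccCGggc

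The table held windows for 8 of the 10 genes (15 windows, since several genes have more than 1 start), without MCL1 and BIK. The BCL2 window held 24 CpG dinucleotides at 70.0% G and C, the BCL2L1 window 17 at 50%, the BAX window 25 at 62.8% and the BCL2A1 window 2 at 38.8%. Over the 15 windows of the set the median was 20 CpG, against 11 over all 35116 windows. Searched on both strands, the GC box GGGCGG was found in 9 of the 15 windows (60.0%), against 42.6% of all windows. These 9 windows came from 5 of the 8 genes, BAD, BAK1, BCL2L11, BID and BMF. Not every window of BID and BMF held it, and BAD and BID gave more than 1 window each. TATAAA was found in 2 of the 15 windows (13.3%), the BCL2A1 window and the outer BCL2L1 window, and in 10.7% of all windows. The p53 consensus decamer occurred once, upstream of BAK1 (5.57% of all windows), an NF-kB consensus once, upstream of BMF (9.96%), and the E2F motifs TTTGGCGC and TTTCGCGC in none (0.968%). A match of letters is no evidence of binding, and several windows of 1 gene overlap.

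Values are normalized log2 expression values, 1 per array. A gene passed the level filter when the higher of its 2 values reached 4.02, the median over both arrays of the gene-level values. This left 7685 genes, 7 of the 10 members among them. ARHGAP4 stood at 6.68 in the EGFP-ARHGAP4 array and 4.49 in the EGFP vector array, in the direction of the labels. Of 15 listed mammary epithelial markers 6 were measured and all 6 passed the filter in this table, among them KRT5, KRT18 and EGFR, while KRT14 was lower by 2.25 and EPCAM higher by 1.20. Of the measured markers of other cell types, LYZ, DCN, VWF and PLIN1 were below the filter in both arrays, and CD14 (5.48 against 5.84) and SPI1 (4.24 in both) were above it; any part of other cells in the results was not tested. Differences centred slightly below 0, with a median of -0.10 over genes past the filter and -0.03 over all genes. A log2 difference of 0.5 is 1.41-fold, and 15.0% of genes past the filter reached it, 5.15% higher and 9.81% lower. In bulk RNA, fewer cells of a type and less RNA per cell cannot be told apart.

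BCL2, the founding anti-apoptotic member, stood at 3.59 on the log2 scale in the EGFP-ARHGAP4 array and 4.51 in the EGFP vector array. The difference of -0.92 is 1.89-fold, and 1.15% of genes past the filter were as low or lower. It rested on 1 feature (16855673), as did the difference of every other member but BMF, and those of BAX and BNIP3L. BCL2 reached the filter in the EGFP vector array alone, and a gene that passes in 1 array only has to differ. Of the 558 genes that did so in 1 array only, 39.4% differed by 0.5 or more and 20.8% were lower by that much, BCL2 among them.

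BCL2L1, which encodes the survival protein BCL-XL, stood at 7.65 in the EGFP-ARHGAP4 array and 7.34 in the EGFP vector array. That is 0.31 higher, or 1.24-fold, and 10.9% of genes past the filter were as high or higher. MCL1, which encodes a short-lived survival protein, stood at 8.98 in the EGFP-ARHGAP4 array and 9.28 in the EGFP vector array, a difference of -0.30. Among genes past the filter 24.0% were as low as MCL1 or lower. BCL2A1, a guardian best known from blood cells, stood at 1.70 in the EGFP-ARHGAP4 array and 1.93 in the EGFP vector array, far below the filter in both, where a difference cannot be read as one of transcript. The 3 anti-apoptotic genes past the filter thus ran from -0.92 to 0.31, with a median of -0.30, or -0.27 with BCL2A1 counted. Of these, BCL2 alone passed 0.5. The differences of BCL2L1 and MCL1 were 0.62 apart and those of BCL2L1 and BCL2 1.23 apart, contrasts chosen after the values were seen. Among genes past the filter 33.9% differed by as much as BCL2L1 either way.

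**Figure D1:**
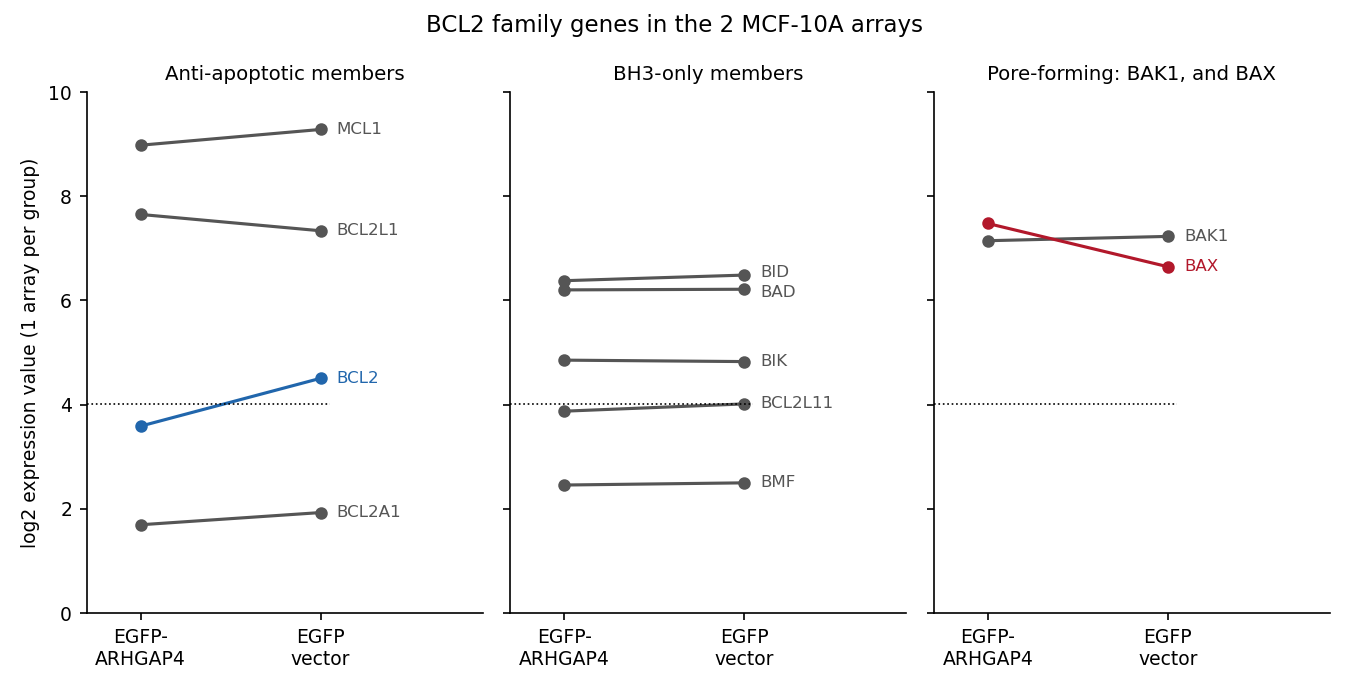
Log2 expression value (vertical axis) of each gene in the EGFP-ARHGAP4 array and the EGFP vector array, joined by a line, in panels by role; the dotted line is the level filter of 4.02, blue marks a gene lower by 0.5 or more and red a gene higher by as much, and there is 1 array per group, so no error bars. BCL2 crosses the filter, at 3.59 in the EGFP-ARHGAP4 array and 4.51 in the EGFP vector array, BAX (not one of the 10) is higher in the EGFP-ARHGAP4 array, and the lines of the BH3-only genes are nearly flat.

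BAK1, the pore-former among the 10, stood at 7.15 in the EGFP-ARHGAP4 array and 7.23 in the EGFP vector array, and its difference of -0.08 was close to the median of genes past the filter. BID, the link from death receptors, stood at 6.38 in the EGFP-ARHGAP4 array and 6.49 in the EGFP vector array. BAD, which binds BCL2 and BCL-XL when it is not phosphorylated, stood at 6.20 in the EGFP-ARHGAP4 array and 6.22 in the EGFP vector array. These 3 genes lay well above the filter, and the largest of their differences was that of BID at -0.11.

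BIK stood at 4.86 in the EGFP-ARHGAP4 array and 4.83 in the EGFP vector array, a difference of 0.03. The BH3-only genes tied to anoikis were both below the filter. BCL2L11 came close to it, at 3.876 in the EGFP-ARHGAP4 array and 4.015 in the EGFP vector array against a filter of 4.022, a difference of -0.14. BMF had 2 features, one at 3.11 in the EGFP-ARHGAP4 array and 3.20 in the EGFP vector array, the other at 1.80 in both to the last digit, as in 6.96% of all features. The mean of the 2 features gave 2.46 in the EGFP-ARHGAP4 array and 2.50 in the EGFP vector array. The 5 BH3-only genes had a median difference of -0.04, and 3 of the 5 passed the filter. Over all 10 members the median was -0.10, against -0.03 over all genes. Over the members past the filter it was -0.08, against -0.10 over all genes past the filter. Of the 10 members 8 were below 0, against 61.4% of genes past the filter and 52.9% of all genes. Past 0.5 were 0 of 10 higher and 1 of 10 lower, and 0 of 10 reached 2-fold. Over all genes whatever their level, 10.7% passed 0.5 and 1.07% reached 2-fold either way; among genes past the filter 1.80% reached 2-fold.

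Of 16 further listed genes of the family or of its BNIP relatives, 14 were measured, and 9 passed the filter. BNIP3L, which encodes the mitophagy receptor NIX, stood at 7.44 in the EGFP-ARHGAP4 array and 6.41 in the EGFP vector array, 1.03 higher, where 1.80% of genes past the filter reached 2-fold either way. BAX stood at 7.48 in the EGFP-ARHGAP4 array and 6.65 in the EGFP vector array. Its difference of 0.83 is 1.78-fold, and 1.60% of genes past the filter were as high or higher. The difference of BAX was 1.75 above that of BCL2, a contrast chosen after the values were seen. BAX is a known target gene of p53, as is BBC3, which encodes the BH3-only protein PUMA and stood at 5.42 in the EGFP-ARHGAP4 array and 5.05 in the EGFP vector array. PMAIP1, which encodes the BH3-only protein NOXA and is a p53 target too, stood at 5.28 in the EGFP-ARHGAP4 array and 5.21 in the EGFP vector array. These 3 genes differed by 0.83, 0.37 and 0.07, and BAX alone of them passed 0.5. Target genes of p53 were not listed as a set here, so these 3 do not show how such targets differed.

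BNIP3, a mitophagy receptor gene induced by hypoxia, stood at 7.36 in the EGFP-ARHGAP4 array and 6.89 in the EGFP vector array, 0.48 higher. The rest past the filter lay between -0.21 and 0.03: BNIP1 was at -0.21, BOK, a pore-forming relative of BAX, at -0.15, BCL2L12 at -0.12 and BCL2L13 at 0.03. Below the filter in both arrays were BCL2L14 at 0.22, BCL2L10 at 0.04, BNIP2 at -0.02, BCL2L15 at -0.12 and BNIPL at -0.17. The 14 genes had a median of 0.03, with 8 above 0, 2 higher by 0.5 and 0 lower by as much. After quantile normalization, centring or loess 3 were higher, BNIP3 being the third, and the median lay between 0.08 and 0.13. Over all genes as deposited, 10.7% passed 0.5 either way. BCL2L2 and HRK were not analysed here.

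**Figure D2:**
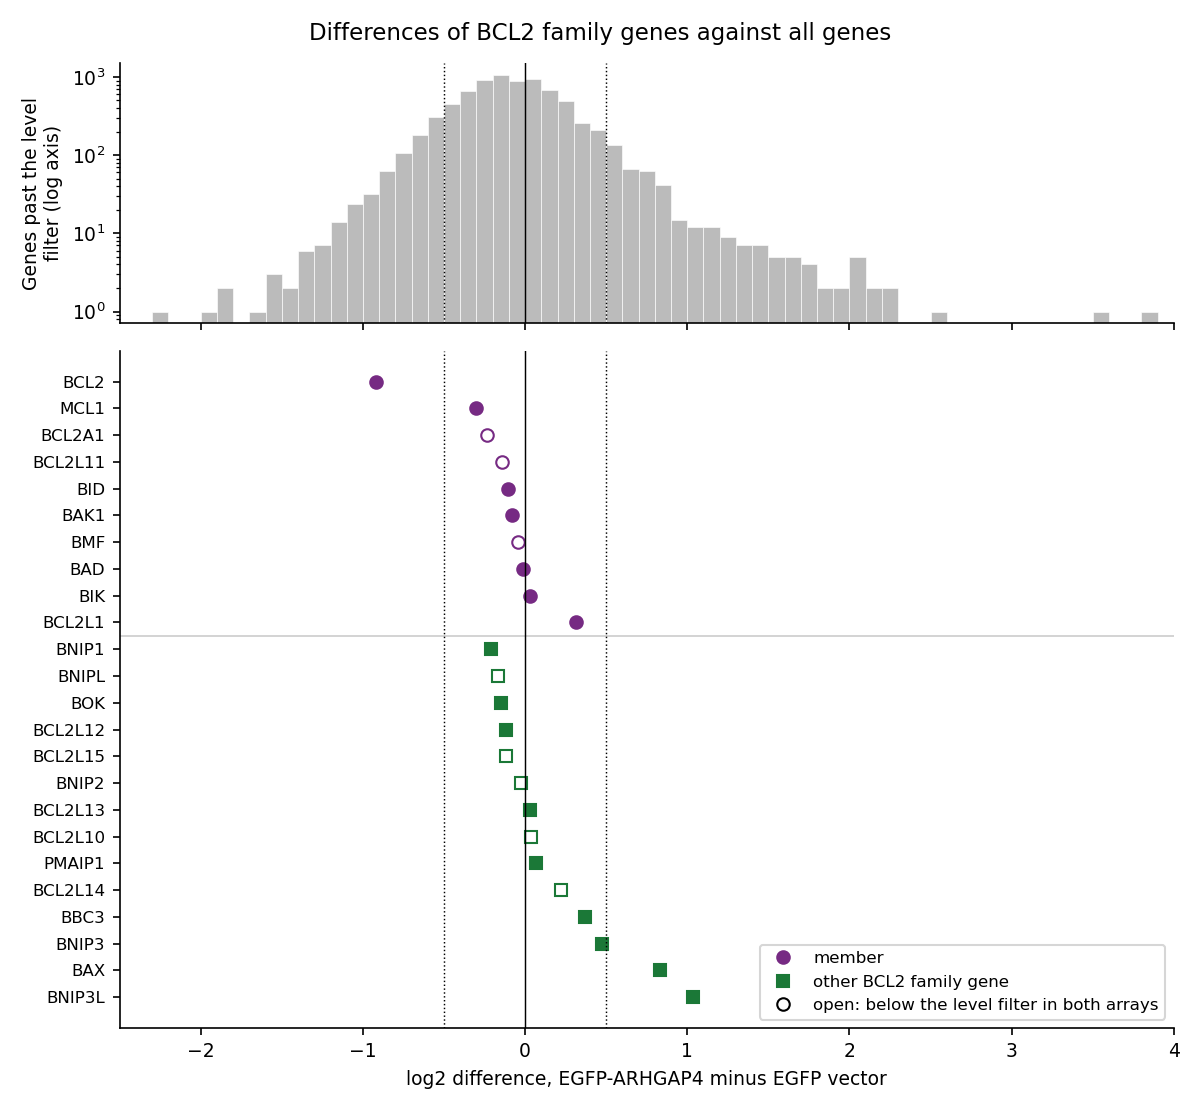
Upper panel, number of genes past the level filter (log axis) by log2 difference, EGFP-ARHGAP4 minus EGFP vector; lower panel, the difference of each of the 10 members (circles) and of 14 other BCL2 family genes (squares), open where both arrays are below the filter, with dotted lines at -0.5 and 0.5. BCL2 at -0.92 is the 1 member beyond the dotted lines, and BAX at 0.83 and BNIP3L at 1.03 are beyond them on the other side.

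Downstream of the BCL2 family, 11 of 15 listed genes of the mitochondrial membrane and apoptosome were measured, with a median of -0.13. The 1 gene past 0.5 was APAF1, the scaffold of the apoptosome, at 5.12 in the EGFP-ARHGAP4 array and 5.75 in the EGFP vector array, a difference of -0.64. Among genes past the filter 9.81% were lower by 0.5 or more. The mitochondrial fission GTPase gene DNM1L was at -0.49 and VDAC1, an outer membrane channel gene, at -0.33. Of 11 listed caspases and their substrates only PARP1 was measured, at -0.21. The 5 measured inhibitor of apoptosis genes, of 7 listed, had a median of -0.31. BIRC2, which encodes the ubiquitin ligase cIAP1, was at -0.52, BIRC6 at -0.35 and BIRC5, which encodes the mitotic protein survivin, at -0.31. After quantile normalization, centring or loess BIRC2 lay between -0.42 and -0.40, short of 0.5, and the list median between -0.21 and -0.18. In the death receptor list 3 of 12 genes were measured: the adaptor genes FADD at -0.15 and TRADD at 0.14, and CFLAR, the inhibitor of caspase 8, at 0.05.

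Of 26 listed regulators of BCL2 family proteins 11 were measured, with a median of 0.03, 2 past 0.5 on the higher side and 0 on the lower. Among genes past the filter 5.15% were higher by 0.5 or more and 9.81% lower. BTRC, part of a ubiquitin ligase whose substrates include MCL1 and BIM, stood at 6.84 in the EGFP-ARHGAP4 array and 6.12 in the EGFP vector array, 0.73 higher. RNF144B, a ubiquitin ligase gene whose product acts on BAX, stood at 7.88 in the EGFP-ARHGAP4 array and 7.36 in the EGFP vector array, 0.52 higher. HMGB1, a chromatin protein gene, was at -0.26. Of 20 listed transcription factors known to act on BCL2 family genes 18 were measured, with a median of 0.03, 1 past 0.5 on the higher side and 3 on the lower. Over all genes 10.7% passed 0.5 either way. E2F1 was at -0.70, GATA3 at -0.66 and REL, an NF-kB subunit gene, at -0.64. FOXO1, a factor that acts on BCL2L11, was at 0.63 and is named after its value was seen. The other listed FOXO genes, named here beside it, were at 0.03 (FOXO3) and 0.29 (FOXO4), both short of 0.5.

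**Figure D3:**
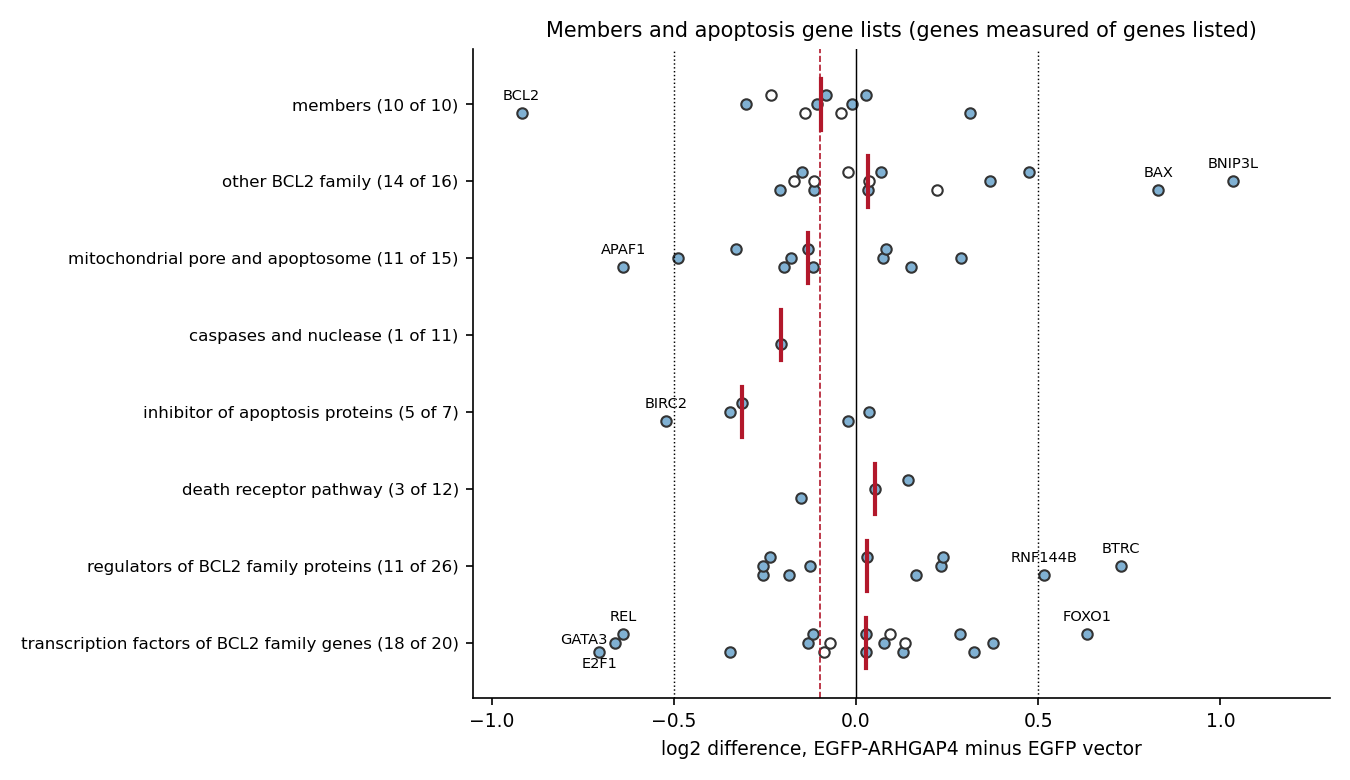
Log2 difference, EGFP-ARHGAP4 minus EGFP vector, of every measured gene in 8 lists (points, open where both arrays are below the level filter), with the list median as a red bar, the median of genes past the filter as a dashed line and dotted lines at -0.5 and 0.5. Genes beyond 0.5 as deposited are named: BCL2, APAF1, BIRC2 (short of it after quantile normalization, centring or loess), E2F1, GATA3 and REL are lower, and BAX, BNIP3L, BTRC, RNF144B and FOXO1 higher.

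Differences in these arrays also followed chromosomal position in places, so each member was set beside the 10 genes past the filter on either side of it. BCL2, on chromosome 18, was lower than all 20 of its neighbours, whose median was -0.13 and lowest difference -0.72 (MALT1). Of genes past the filter 4.92% were lower than every neighbour, and so were 67 of the 558 genes that, like BCL2, reached the filter in 1 array only, so this position adds no support to its difference. PMAIP1 lies on the same chromosome, and BCL2 was the lowest of its 20 neighbours. BCL2L1, on chromosome 20, was higher than all 20 of its neighbours, whose median was -0.15, as were 4.97% of genes past the filter. MCL1, on chromosome 1, was lower than 19 of 20 neighbours, whose median was 0.06, or -0.03 with 25 genes on either side. The share of all genes in such a position was not counted, and 24.0% of genes past the filter were as low as MCL1 or lower. BCL2, BCL2L1 and MCL1 lay outside the quartiles of their neighbours and BAK1, BID, BIK and BAD inside; of the members below the filter, BMF lay outside and BCL2A1 and BCL2L11 inside. That is 3 of 7 members outside among those past the filter, where 54.4% of genes past the filter lay outside, so the count does not set the members apart.

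BAX, on chromosome 19, and BNIP3L, on chromosome 8, were also higher than all 20 of their neighbours, with medians of 0.07 and -0.02. Other genes named above stood in regions with shifts of their own. The neighbours of GATA3 on chromosome 10 had a median of -0.83, lower than GATA3 itself. BTRC and BNIP3, elsewhere on chromosome 10, had neighbours with medians of 0.27 and 0.18, and those of APAF1 on chromosome 12 had a median of -0.39. FOXO1 on chromosome 13 and RNF144B on chromosome 6 were higher in regions that were lower, with neighbour medians of -0.36 and -0.34. The part of regional differences in the values of GATA3, BTRC, BNIP3, APAF1, FOXO1 and RNF144B was not tested.

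**Figure D4:**
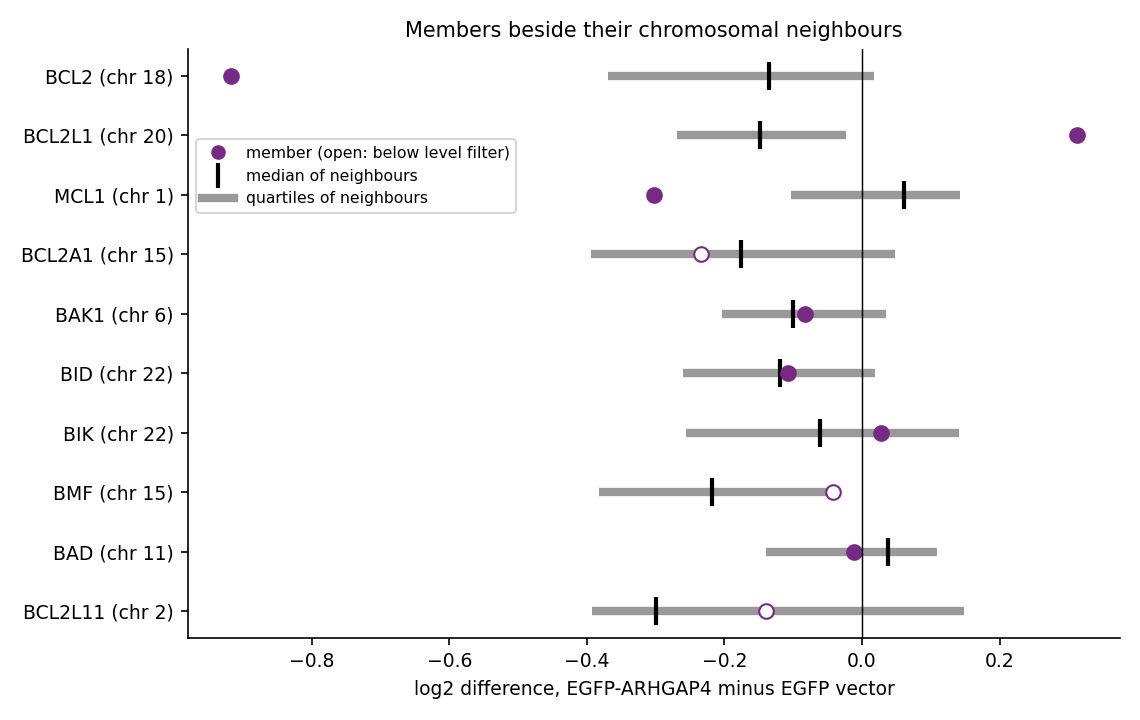
Log2 difference, EGFP-ARHGAP4 minus EGFP vector, of each member (purple circle, open below the level filter) beside the median (black tick) and quartiles (grey bar) of the nearest genes past the filter on its chromosome, 10 on either side (14 in all for BID, with fewer than 10 such genes on one side). BCL2, BCL2L1, MCL1 and BMF lie outside the grey bars and the other members inside them; 54.4% of genes past the filter lie outside the quartiles of their neighbours.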

How the data were processed

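RNA of 2 MCF-10A lines was hybridised to whole-transcript Affymetrix arrays, 1 per line, per the labels' protocols. The deposited table holds normalized log2 values for 44629 features, with summarisation, normalization and tools not given in the sources used here. Log2 was inferred, since the highest value, 12.8, exceeds the natural log (11.1) and log10 (4.82) of a 16-bit reading. The 15835 features that the platform annotation of 2020 named for a single gene symbol were used. Features named for several symbols were left out, and a gene without a used feature counts as not measured. Log2 values of features sharing a gene were averaged. Differences are EGFP-ARHGAP4 minus EGFP vector, with no further scaling. No test was run, and the number of arrays limits the precision. Chromosomes, gene order and promoter sequences came from RefSeq (GRCh38.p14); the build behind the arrays is not given. The members and lists were chosen with earlier results of these data known. The text names the 10 members, ARHGAP4, the other measured family genes and up to 3 genes with the largest absolute difference past the filter from each other list; exceptions are marked. Alternatives were quantile normalization, median centring, loess (span 0.3), the highest feature per gene, other filters and a 1.5-fold threshold. The software was matplotlib 3.10.9, statsmodels 0.14.6, numpy 2.4.6 and pandas 2.3.3 under Python 3.11.15, and the calculations were tested on simulated data.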

Additional observations from a re-analysis of the deposited data

How the results depend on the processing

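The difference of BCL2 lay between -0.92 and -0.82 under quantile normalization, median centring, loess on level and the highest feature per gene, that of BCL2L1 between 0.31 and 0.45 and that of MCL1 between -0.30 and -0.18. BAK1, BID, BAD and BMF, all within 0.11 of 0, changed sign under at least 1 of these settings, and the median over the 10 members, -0.10 as deposited, was 0.005 after centring. BAX lay between 0.83 and 0.96. The count of members lower by 0.5 or more was 1, and 0 with the filter at the 0.75 quantile (5.91), which leaves BCL2 out by construction. The count of inhibitor of apoptosis genes lower by 0.5, also 1, was 0 after quantile normalization, centring and loess. With genes below the filter included, the median of BCL2L11's neighbours, -0.30, was -0.09, and those of BCL2, BCL2L1, BMF and BCL2A1 were 0.0009, -0.03, -0.04 and -0.03, all nearer 0. The median of BAK1's neighbours went from -0.10 to -0.07. Those of BIK and BID moved away from 0, from -0.06 to -0.11 and from -0.12 to -0.13, and that of BAD stayed at 0.04. That of MCL1's neighbours changed sign, at -0.009 then and -0.03 with 25 genes on either side. The cause was not tested. No paired analysis was possible because each line has 1 array.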
